A study of Mus musculus with 6 samples.

Results

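The regions described here are peaks of GLI3R that appeared in the doxycycline peak list alone and lay more than 50 kb from every protein-coding gene. GLI3R is the repressor form of the Hedgehog transcription factor GLI3. From the doxycycline list of 3640 distinct intervals, 3567 shared no base with an untreated peak, and 1018 of these (28.5%, 95% exact Clopper-Pearson interval 27.1 to 30.1) had a midpoint beyond 50 kb. The regions were thus chosen by the peak calls of the 2 lists and by position, so their enrichment is given below as a description, with no test.

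Cells of the mouse embryonic stem cell line GLI3R-FTA (strain A2Lox.cre) were differentiated to cardiac progenitors and harvested on day 6. All groups carried the inducible, Avi-tagged GLI3R. The treated cells received 500 ng/ml doxycycline from day 5 for 24 h, and the control cells were untreated. Each condition had 2 streptavidin pull-downs and 1 input, but the values analysed were 1 deposited peak list per condition. No peak therefore has a replicate error, and nothing in the labels says whether the 2 pull-downs of a condition came from separate differentiations. The factor was overexpressed in a single engineered line, and the peak lists hold no expression values against which the labelled cell type could be checked.

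GLI proteins are zinc finger factors that bind a shared DNA motif. Without Hedgehog ligand GLI3 is processed to a truncated form that represses targets, and with ligand full-length GLI proteins activate them. Many developmental regulators are controlled by enhancers that lie in long stretches without genes. A peak in such a stretch is not assigned to a gene by its position, and the nearest gene is named here as a landmark.

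Of the 1018 regions, 2 overlapped a promoter window in RefSeq (GRCm38.p6, the assembly of mm10; 250 bases before to 50 after a gene start). Both windows belong to long non-coding RNA genes, and their sequences are shown because the peaks overlapped the promoter of a gene that the protein-coding distance rule does not count. The Gm30663 peak covers the gene start, and the Gm19385 peak lies upstream of it. Capitals mark the bases inside the peak, and each is printed 5′ to 3′ on the strand of the gene. The Gm30663 window is chr15:7034150-7034449 on the plus strand, and the Gm19385 window is chr9:120866496-120866795 on the minus strand.
Gm30663: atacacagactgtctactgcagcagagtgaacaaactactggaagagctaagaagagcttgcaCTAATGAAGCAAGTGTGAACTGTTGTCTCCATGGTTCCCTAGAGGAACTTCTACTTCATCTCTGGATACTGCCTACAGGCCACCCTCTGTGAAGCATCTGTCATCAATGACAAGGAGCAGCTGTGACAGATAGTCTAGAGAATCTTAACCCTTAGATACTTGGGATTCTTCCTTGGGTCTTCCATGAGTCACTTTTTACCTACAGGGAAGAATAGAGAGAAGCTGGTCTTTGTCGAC
Gm19385: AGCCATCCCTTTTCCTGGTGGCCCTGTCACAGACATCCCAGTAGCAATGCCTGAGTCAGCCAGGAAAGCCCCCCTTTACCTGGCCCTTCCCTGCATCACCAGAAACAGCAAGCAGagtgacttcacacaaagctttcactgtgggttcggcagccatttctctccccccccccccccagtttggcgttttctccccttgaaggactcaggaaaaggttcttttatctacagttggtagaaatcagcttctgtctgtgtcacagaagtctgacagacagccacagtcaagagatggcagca

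The peak at Gm30663 covered 237 of the 300 window bases, with its summit at position 197 of the window, upstream of the gene start. It was enriched 10.4-fold with 14 fragments over the summit (the pileup) and a −log10 q, the authors' significance value, of 12.8. It lay 56.3 kb from Lifr, the receptor for leukaemia inhibitory factor, and 159 kb from Osmr, the related oncostatin M receptor. The peak at Gm19385 covered 115 bases at the outer end of its window. That peak was weaker, at 6.26-fold, a −log10 q of 4.88 and 8 fragments, and lay 66.6 kb from Ctnnb1, which encodes beta-catenin. The GLI motif GACCACCCA, searched on both strands, was in neither window, and 0.253% of all 32851 RefSeq windows of that length hold it. Its core CCACCC, which the full motif contains, occurred at position 143 of the Gm30663 window, inside the peak, on the strand shown. That core is in 31.5% of all windows, so a match in 1 of the 2 is a description only.

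The values that chose the peaks were modest for most of them. Fold enrichment, the authors' ratio of signal at the summit to local expectation, ran from 3.86 to 21.1 with a median of 5.12 and quartiles of 4.39 and 6.43. The pileup, worked back from fold and p, was 5 fragments, the lowest of the doxycycline list, for 323 peaks and 6 for another 276. A pileup of 5 has a 95% Poisson interval of 1.62 to 11.7 fragments, which at background expectation spans 1.92-fold to 9.26-fold. More than 3 in 4 of the 1018 folds lie inside that span, so most regions are not ranked by these values. At the other end, 110 had at least 10 fragments and 36 reached 10-fold. The peaks were narrow, with a median width of 156 bases.

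At 10-fold or more were 3.54% of the peaks beyond 50 kb (interval 2.49 to 4.86), against 6.14% of all 3567 doxycycline-only peaks. The share was 6.47% (5.31 to 7.80) for doxycycline-only peaks inside genes and 8.35% (6.68 to 10.3) for those outside genes but within 50 kb. Of untreated-only peaks beyond 50 kb, 8 of 1602 (0.499%) reached 10-fold, beside 0.604% of all untreated-only peaks. A −log10 q of 5 or more was reached by 260 of the 1018 (25.5%), beside 32.7% of the whole class, and by 145 of the 1602 (9.05%), beside 8.57% of all untreated-only peaks. Read the other way, the share of doxycycline-only peaks that lay beyond 50 kb was 28.5% at the authors' threshold, 19.6% (16.4 to 23.2) with at least 10 fragments and 16.4% (11.8 to 22.02) at 10-fold or more. For untreated-only peaks the same shares were 37.2%, 44.9% (34.8 to 55.3) and 30.8% (14.3 to 51.8). Sequence beyond 50 kb makes up 36.2% of the 2600 Mb between the outermost genes of the 20 chromosomes.

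**Figure D1:**
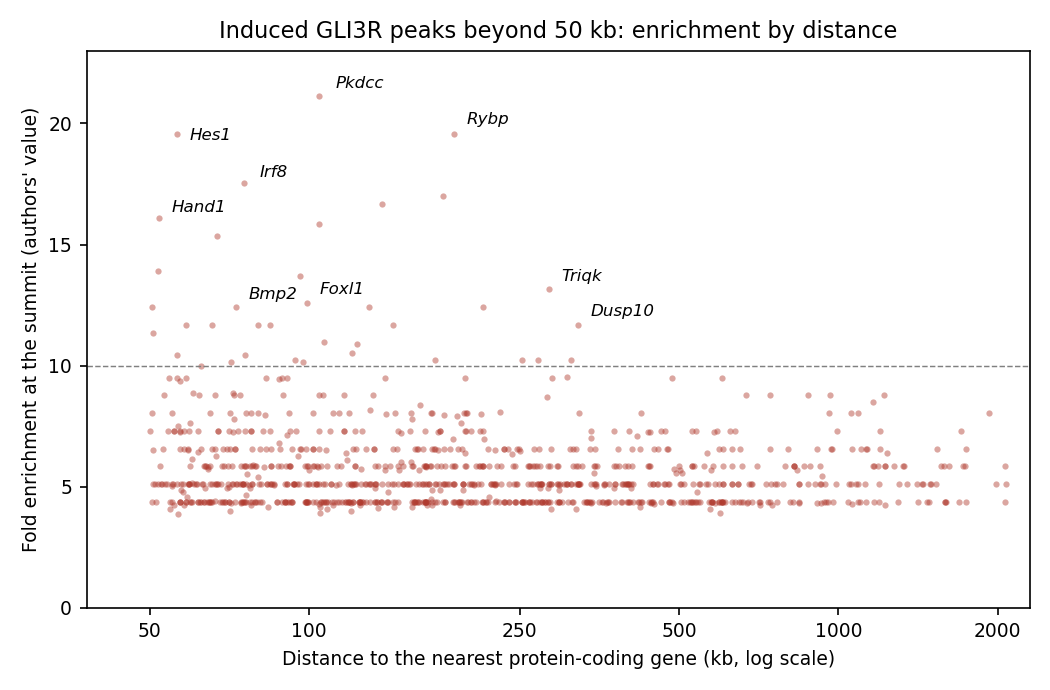
Each point is 1 of the 1018 doxycycline-only GLI3R peaks beyond 50 kb, by distance to the nearest protein-coding gene (kb, log scale) and the authors' fold enrichment at the summit; the dashed line marks 10-fold, and 9 of the strongest are labelled with the nearest gene. The 36 peaks at or above the line lie at most 322 kb from a gene, and the horizontal rows arise from whole numbers of fragments at a common background.

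How far beyond 50 kb a peak lay was not fixed by the rule, except for its lower bound. The median distance was 180 kb and the highest 2078 kb. There were 278 peaks at 50 to 100 kb, 344 at 100 to 250 kb, 203 at 250 to 500 kb, 130 at 500 to 1000 kb and 63 beyond 1000 kb. Per Mb of sequence at these distances, the density was 1.37 (95% Poisson interval 1.21 to 1.54) at 50 to 100 kb, 1.17 (1.05 to 1.30) at 100 to 250 kb and 0.944 (0.818 to 1.08) at 250 to 500 kb. It was 0.832 (0.695 to 0.988) at 500 to 1000 kb and 0.852 (0.654 to 1.09) beyond that. Doxycycline-only peaks inside genes had 1.55 per Mb (1.47 to 1.62), so the intervals of the gene bodies and of every distance beyond 100 kb do not overlap. Untreated-only peaks had between 1.58 and 1.82 per Mb at every distance, with 1.62 (1.45 to 1.81) at 50 to 100 kb and 1.82 (1.53 to 2.16) beyond 1000 kb. These intervals cover counting error only, peaks in 1 list are not replicates, and how much of each zone can be mapped was not analysed here.

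Among peaks beyond 50 kb, the share of strong ones was highest at 50 to 100 kb. At 10-fold or more were 19 of 278 peaks at 50 to 100 kb (6.83%, interval 4.16 to 10.5), 12 of 344 at 100 to 250 kb (3.49%, 1.82 to 6.01) and 5 of 203 at 250 to 500 kb (2.46%, 0.804 to 5.65). Beyond 500 kb there were 0 of 193, which at a limit of 3 counts allows a share of up to 1.55%, and the highest fold there was 9.50. Untreated-only peaks beyond 500 kb also had 0 of 387 at 10-fold or more, with a highest fold of 9.43. The median fold of the doxycycline-only peaks was 5.12 in each of the 5 distance classes. The 10-fold intervals of neighbouring classes overlap, and the equal medians are the step of 6 fragments. A −log10 q of 5 or more was reached by 34.2% at 50 to 100 kb and 26.5% at 100 to 250 kb. It was reached by 17.7% at 250 to 500 kb, 17.7% at 500 to 1000 kb and 23.8% beyond that.

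**Figure D2:**
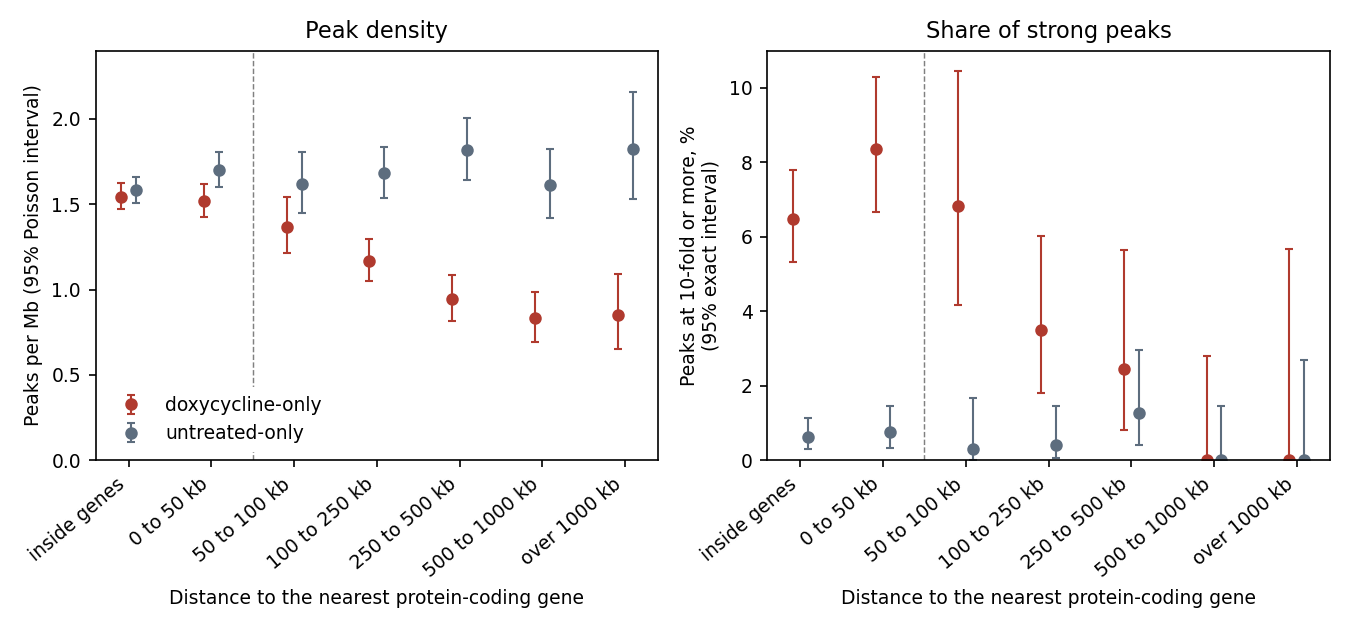
Left, peaks per Mb of sequence at each distance from protein-coding genes, with 95% Poisson intervals; right, the percentage of peaks at 10-fold or more, with 95% exact intervals, for doxycycline-only (red) and untreated-only (grey) peaks. Right of the dashed line, at 50 kb, the red density goes from 1.37 to 0.852 per Mb while the grey values stay between 1.61 and 1.82.

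The strongest peak beyond 50 kb (chromosome 17, 83110562 to 83110845) lay 105 kb from Pkdcc, which encodes a secreted protein kinase needed for skeletal growth. It was enriched 21.1-fold at a −log10 q of 38.1, from 28 fragments (Poisson interval 18.6 to 40.5). A second peak, 107 kb from Pkdcc, reached 10.96-fold with 14 fragments. The other flank of this stretch, Slc8a1, lay 1372 kb away. A 19.6-fold peak with 26 fragments (17.0 to 38.1) lay 188 kb from Rybp, a subunit of Polycomb repressive complex 1 (chromosome 6, 100040479 to 100040784). A second peak near Rybp, 198 kb away, had 8.04-fold enrichment. The counting intervals of these strongest peaks overlap widely, so their order is not resolved.

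The 20 strongest peaks are given here by the role of the nearest gene, an order set after their values were seen. The last values are tied: 6 peaks shared the fold, −log10 q and pileup of the last 3 taken. Hes1, a repressor downstream of Notch, had a 19.6-fold peak at 56.4 kb (chromosome 16, 30008791 to 30009133; −log10 q 34.2). Hand1, a basic helix-loop-helix factor of the embryonic heart, had a 16.1-fold peak at 52.0 kb with 21 fragments (chromosome 11, 57883994 to 57884301; −log10 q 25.5). A 17.5-fold peak of 23 fragments lay 75.5 kb from Irf8, a factor of myeloid cells, and 252 kb from Foxf1 on the other side. The forkhead gene Foxl1 had a 12.6-fold peak at 99.2 kb with 18 fragments, and Foxd2, of the same family, an 11.7-fold peak at 84.3 kb with 15.

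Bmp2, a ligand that drives heart mesoderm differentiation, had a 12.4-fold peak at 72.9 kb with 16 fragments (chromosome 2, 133635620 to 133635881). Sik1, a salt-inducible kinase, had a 15.3-fold peak at 66.9 kb with 20 fragments. Dusp10, a phosphatase that switches off stress-activated MAP kinases, had an 11.7-fold peak at 322 kb, almost midway to the homeobox gene Hlx at 329 kb. Sema3e, a semaphorin that guides vessels and axons, had an 11.7-fold peak at 65.4 kb. Intu, a planar polarity effector required for primary cilia, the organelle through which Hedgehog signals pass, had a 13.9-fold peak at 51.8 kb.

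The peaks nearest to Atp6ap1l (16.7-fold, 137 kb), Eif3h (15.8-fold, 104 kb) and Snx18 (13.7-fold, 96.2 kb) had 22, 21 and 18 fragments. Those nearest to Triqk (13.2-fold, 284 kb), Rbms1 (12.4-fold, 213 kb), Duxbl3 (12.4-fold, 50.5 kb) and 1600014C23Rik (12.4-fold, 130 kb) had 17, 16, 16 and 16. Among their more distant flanks were Trps1, a zinc finger repressor 792 kb from the Eif3h peak, and Vegfa, the vascular growth factor, 153 kb from the 1600014C23Rik peak. Near the 20 strongest peaks an untreated peak lay within 100 kb for 9, and for 301 of all 1018 (29.6%). The Hand1 peak had 2 so near, and an untreated peak 0.296 kb from Hand1 had 4 fragments (3.93-fold). The Bmp2 peak had 1, which lay 10.4 kb from Bmp2 with 7 fragments (6.29-fold).

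**Figure D3:**
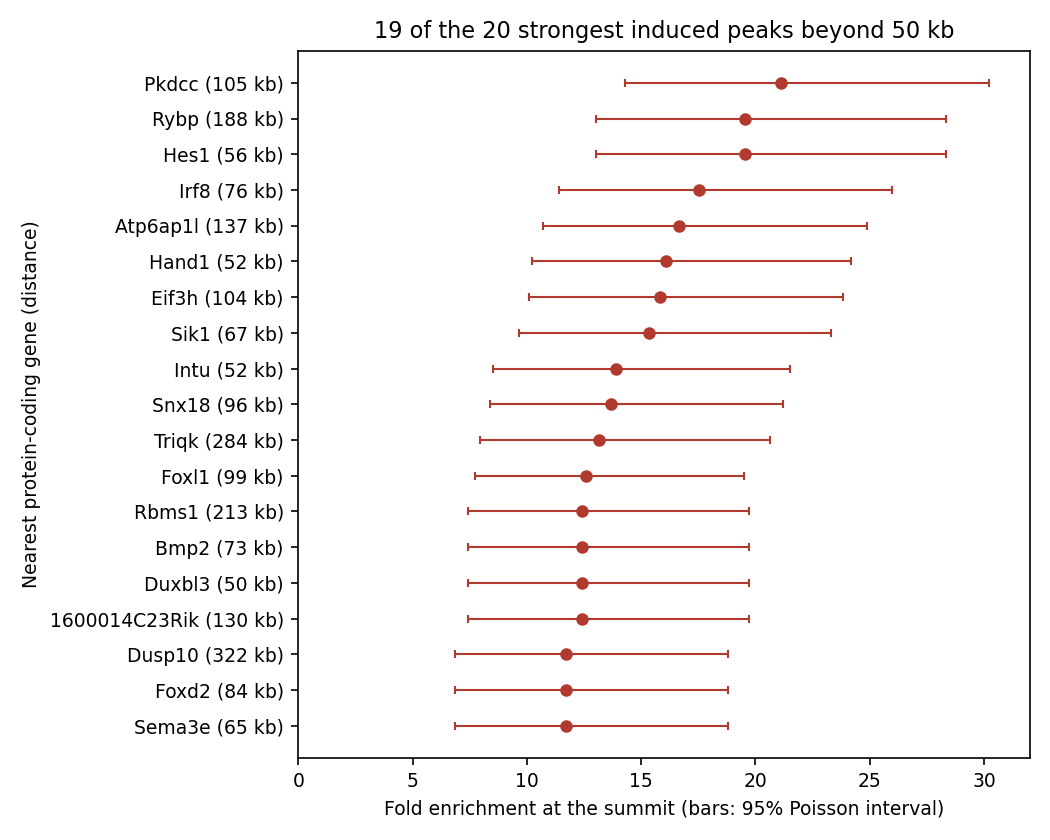
Fold enrichment of 19 of the 20 strongest doxycycline-only peaks beyond 50 kb, ordered by −log10 q, with bars for the 95% Poisson counting interval of the pileup; labels give the nearest protein-coding gene and its distance. Values run from 11.7-fold to 21.1-fold, and the interval of the strongest (14.3 to 30.2) overlaps those of all the others.

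The stretch around Foxf1, Foxc2 and Foxl1, forkhead genes of the embryonic mesoderm, held 9 of the 1018 peaks. Between Irf8 and Foxf1, a gap of 328 kb on chromosome 8, there were 5, at 257, 252, 172, 147 and 144 kb from Foxf1. Their folds in that order were 10.2, 17.5, 6.01, 6.58 and 6.58, with 13, 23, 8, 8 and 8 fragments. Beyond Foxl1, in a gap of 400 kb, there were 4, of which the strongest was the 12.6-fold peak given above and the others reached 6.01-fold, 8.04-fold and 8.04-fold. The lowest of the 9 had 8 fragments, above the median of 6 for all 1018. The untreated list held 2 peaks across the whole stretch, with 5 fragments each (4.68-fold and 4.70-fold), and 1 doxycycline peak lay within 50 kb, 3.53 kb from Foxf1.

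The gap of 402 kb between Opa1, a mitochondrial fusion gene, and Hes1 held 6 of the peaks and no untreated peak. The strongest was the 19.6-fold peak 56.4 kb from Hes1. The other 5 sat together at 67.3 to 96.2 kb from Opa1 and 306 to 335 kb from Hes1 (chromosome 16, 29730282 to 29759367), the run with the most peaks. Within 29.1 kb they had 9, 9, 10, 5 and 8 fragments and 7.31-fold, 7.27-fold, 7.80-fold, 4.39-fold and 6.58-fold enrichment. The peaks of 7.27-fold and 7.80-fold lay 71.87 and 72.28 kb from Opa1, and whether they are separate sites was not tested. At Hes1 itself the doxycycline list had 4 more peaks, at up to 23.6 kb, the strongest inside the gene at 8.20-fold. The distant peak thus had over 2 times the fold of the peak within the gene, 26 fragments (17.0 to 38.1) against 12 (6.20 to 20.96), and these counting intervals overlap.

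Other runs varied in strength. Over all chromosomes 229 of the 1018 peaks (22.5%, 19.96 to 25.2) lay within 100 kb of another of them, against 452 of 1602 untreated-only peaks beyond 50 kb (28.2%, 26.0 to 30.5), a larger class. There were 11 separate runs of at least 3 peaks within 100 kb, with 36 peaks in all. By number the second was a run of 4 beside Bcor, a BCL6 corepressor on chromosome X (12252411 to 12347186), with 4.39-fold to 5.85-fold enrichment. A run of 3 between 1700025G04Rik and Tsen15 had 5 fragments at each peak. A run of 3 between Dusp10 and Hlx held the 11.7-fold peak above with others at 8.04-fold and 6.58-fold. These last 2 runs tied with 7 others at 3 peaks and were taken by position. Of all 11 runs, those between Dok5 and Cbln4 and beyond Foxl1 held 1 untreated peak each within their span and the other 9 none. Just outside the run between Dusp10 and Hlx, an untreated peak lay 2.98 kb from its peak nearest Hlx.

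**Figure D4:**
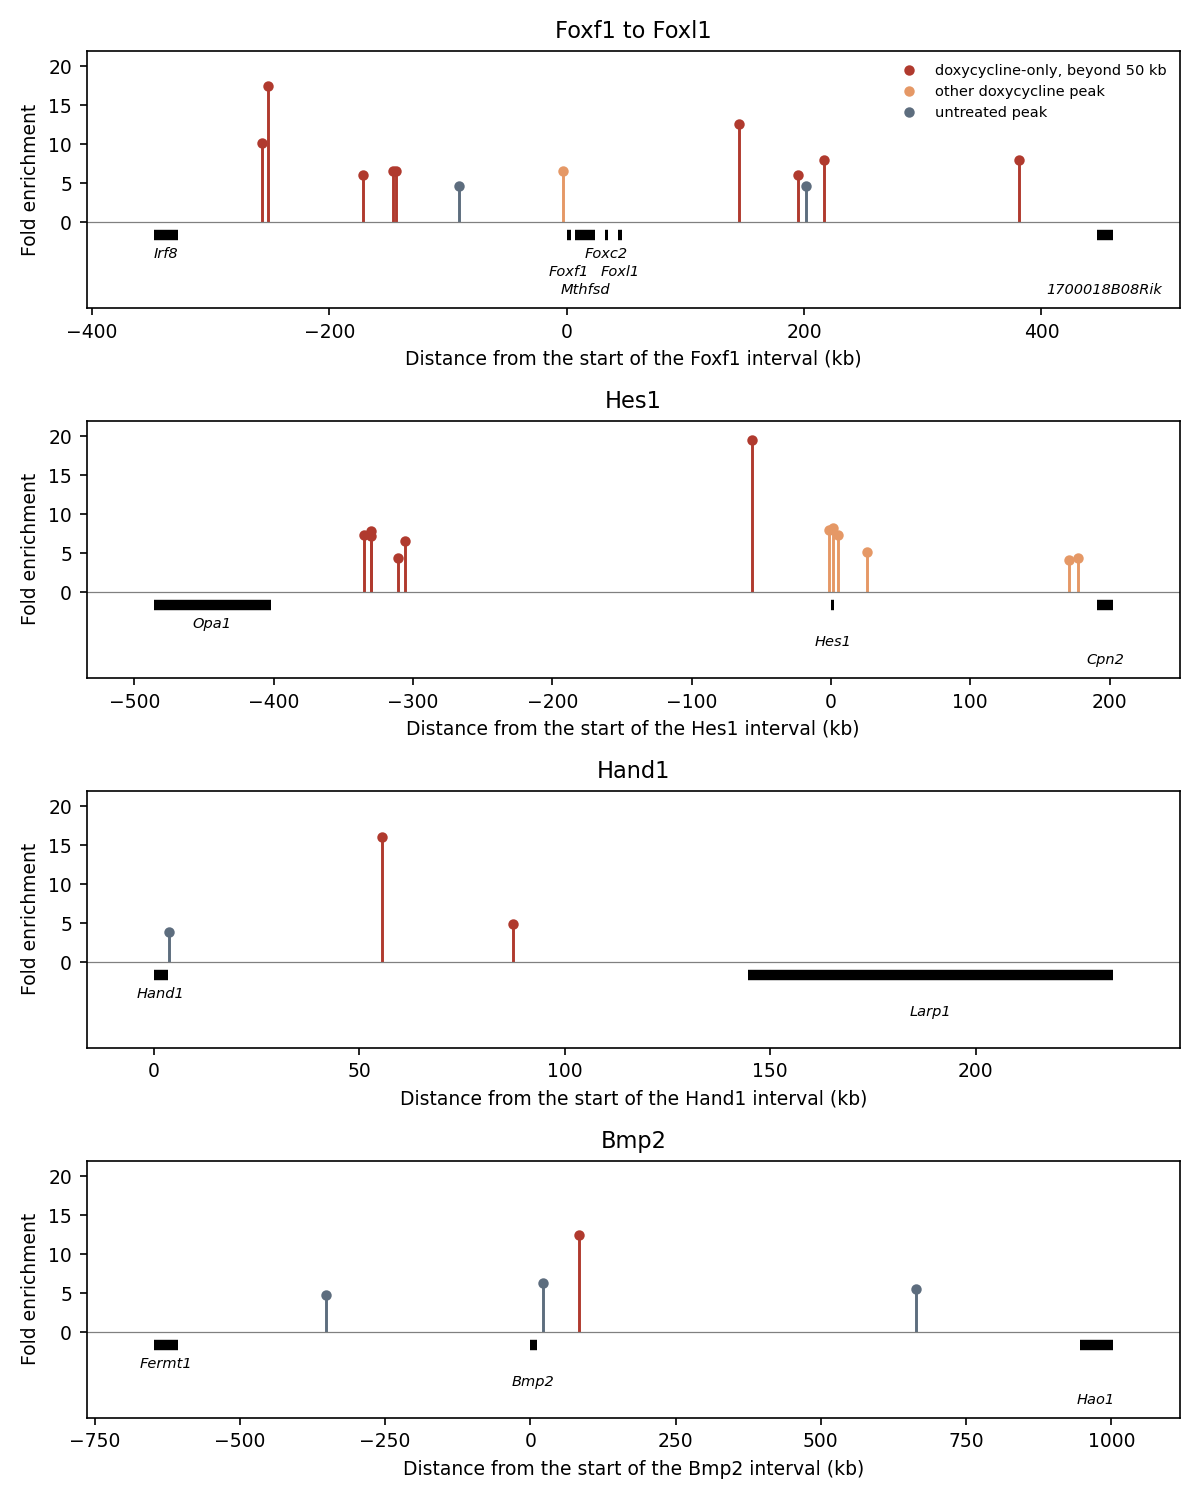
Peaks and genes around Foxf1, Hes1, Hand1 and Bmp2, as distance in kb from the start of the named gene's interval; stem height is the authors' fold enrichment, red for doxycycline-only peaks beyond 50 kb, orange for other doxycycline peaks and grey for untreated peaks, with genes as black bars. The 4 stretches, chosen after their values were seen, hold 9, 6, 2 and 1 red peaks, and the tallest stem of each is red.

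The 1018 peaks had 738 different nearest genes, 3.41% of 21631 protein-coding genes, and 191 of these had at least 2. Untreated-only peaks beyond 50 kb had 979 (4.53%). Pcdh17, a protocadherin, had 7 peaks of 4.39-fold to 8.77-fold at 151 to 1498 kb. Flrt2, an adhesion protein of the heart and nervous system, had 6, as had Rpia, an enzyme gene of the pentose phosphate pathway, and Cdh11, Ctnna2 and Cntnap5b, also adhesion genes, had 5 each. Untreated-only peaks beyond 50 kb were more at Ctnna2 (7) and Cntnap5b (6), and fewer at Pcdh17 (6), Flrt2 (3), Rpia (2) and Cdh11 (1). Irs1, which encodes an adaptor of insulin and IGF receptors, had 5 peaks at 121 to 422 kb, the strongest of 10.5-fold, and 2 untreated-only peaks. Flrt2, Rpia, Cdh11 and Irs1 were picked for these counts after the values were seen.

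Set against lists of genes, the peaks beyond 50 kb are best read per Mb, because genes beside longer gaps have more room for them. Of the 21631 protein-coding genes 4506 border sequence beyond 50 kb from every gene, and 16.4% of those were the nearest gene of a doxycycline-only peak there and 21.7% of an untreated-only one. Over all such sequence the density was 1.08 doxycycline-only (1.01 to 1.15) and 1.70 untreated-only peaks per Mb (1.62 to 1.78). Housekeeping genes, the reference, were nearest to 0 peaks of either class, and only 2 of 20 border such sequence.

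GLI-responsive regulators were the landmarks of 16 peaks at 7 of 32 genes, 5 of them at Foxf1 and Foxl1. Over their 6.62 Mb of far sequence this gave 2.42 peaks per Mb (1.38 to 3.92), an interval above the value over all genes. That interval treats each peak as independent, although a Foxf1 pair lay 2.73 kb apart and a Foxa2 pair 9.02 kb apart. The list was also chosen with earlier results of these data known. Untreated-only peaks in the same sequence numbered 18, at 2.72 per Mb (1.61 to 4.30). Of the 16 doxycycline-only peaks 10 had a −log10 q of 5 or more, beside 25.5% of all 1018, and of the 18 untreated-only peaks 1 did, beside 9.05% of that class. Their median folds were 6.58 and 4.09. Beside Foxl1 and Foxd2, given above, Hmga2, a chromatin protein of proliferating progenitors, had a 10.4-fold peak at 75.5 kb with 14 fragments. Within 100 kb of it lay 5 other doxycycline peaks, the strongest at 11.7-fold. A second Hmga2 peak beyond 50 kb, of 6.26-fold at 95.2 kb, had an untreated peak 0.35 kb away by midpoint. Foxa2, a forkhead factor of floor plate and endoderm, had 3 peaks of 8.77-fold at 66.5 kb, 7.31-fold at 75.5 kb and 6.58-fold at 247 kb. These 3 also made up all that was nearest to the 26 neural progenitor genes, 0.873 per Mb (0.180 to 2.55). Untreated-only peaks were 12, at 7 of those 26 genes, or 3.49 per Mb (1.80 to 6.10). Sall1, a zinc finger repressor of the GLI-responsive list, had 4 doxycycline-only peaks, at 96.7 to 526 kb, of 4.39-fold to 6.58-fold.

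For the Hedgehog pathway genes the count was small and the interval wide. Of 24, Hhip, which encodes a Hedgehog-binding inhibitor, alone was the nearest gene, of 1 peak at 187 kb with 6 fragments (5.12-fold), and 9 of the 24 border sequence beyond 50 kb. The density was 0.646 per Mb (0.0164 to 3.60), an interval that holds the value over all genes. With the gene on either side counted in place of the nearest, 4 of the 24 flanked a peak, beside 5.49% of all genes. Most of all genes border no sequence beyond 50 kb, so these shares are not like for like. Untreated-only peaks beyond 50 kb were also flanked by 4 of the 24. As nearest genes, 3 of the 24 had 4 untreated-only peaks, 2.59 per Mb (0.705 to 6.62).

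Of 34 genes of cardiac progenitors and the second heart field, 5 were nearest to 6 peaks, 0.988 per Mb (0.363 to 2.15), close to the value over all genes. Hand1 led them, and a peak 173 kb from Mef2c, a MADS-box factor of the heart field, reached 10.2-fold with 13 fragments (chromosome 13, 83330999 to 83331199). Tbx5, a T-box factor of the heart and forelimb, had a peak of 6 fragments at 83.3 kb. Untreated-only peaks were 17 at 11 of these genes, or 2.80 per Mb (1.63 to 4.48). Their median fold was 4.72, and none reached 10-fold, beside 0.499% of all untreated-only peaks beyond 50 kb. Of 28 cardiomyocyte genes, 5 border sequence beyond 50 kb. Tpm1, which encodes tropomyosin, had a peak of 5.72-fold at 64.5 kb. Gja1, the gap junction gene, had a peak of 5.12-fold at 271 kb. Untreated-only peaks at the cardiomyocyte genes were also 2, and both classes had 1.78 per Mb (0.215 to 6.43).

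Of 34 BMP, WNT, FGF and Notch genes 8 were nearest to 1 peak each, 1.74 per Mb (0.749 to 3.42). Hes1 and Bmp2 are the 2 at 10-fold or more. Jag1, a Notch ligand, and Lef1, a nuclear effector of WNT, had peaks of 5.85-fold with 7 fragments at 283 and 174 kb. Untreated-only peaks were 5, at 3 of these genes, or 1.08 per Mb (0.352 to 2.53). The counting intervals of both classes overlap.

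In 3 further lists the interval of the doxycycline-only density held the value over all genes. The 60 developmental transcription factors of gene-poor neighbourhoods had 37 peaks at 25 genes, 1.24 per Mb (0.874 to 1.71), and none at 10-fold. Tfap2c and Myc had peaks of 8.77-fold with 11 fragments, at 117 and 875 kb, and Sox9, a factor of cartilage and heart valves whose distant enhancers are well known, had 2, of 8.01-fold at 212 kb and 7.31-fold at 462 kb. Tshz1 had 1 of 8.04-fold at 423 kb. The 70 adhesion and synaptic genes had 94 peaks at 38 genes, 1.13 per Mb (0.913 to 1.38), with Cdh20, Ctnna2 and Slitrk1 among the strongest after Pcdh17, at 8.04-fold, 8.04-fold and 7.31-fold. The 31 guidance genes had 13 at 10 genes, 0.804 per Mb (0.428 to 1.38). Beside Sema3e they included Nrp2, a semaphorin coreceptor, and Epha7, an ephrin receptor, both at 6.58-fold, and Robo1, a Slit receptor, at 5.85-fold. Untreated-only peaks had 2.48 per Mb (1.95 to 3.12), 1.80 (1.53 to 2.12) and 2.60 (1.87 to 3.51) in the 3 lists.

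**Figure D5:**
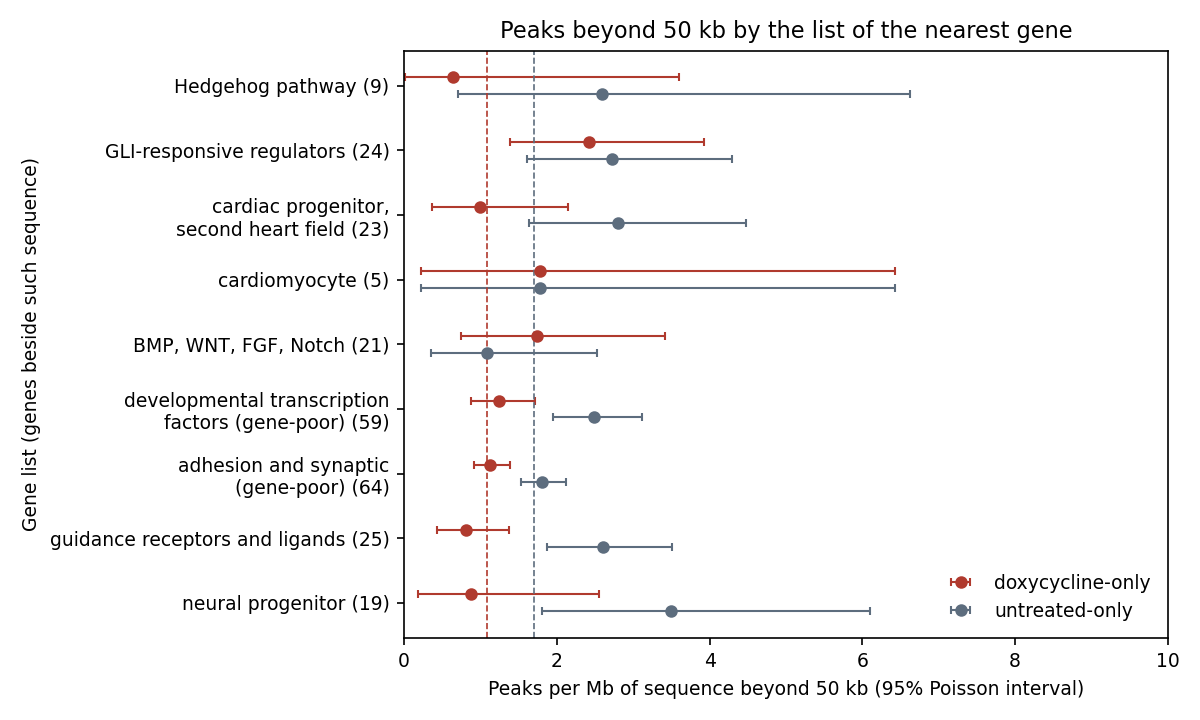
Peaks beyond 50 kb per Mb of such sequence, by the list to which the nearest gene belongs, with 95% Poisson intervals; red is doxycycline-only, grey untreated-only, dashed lines are the values over all genes, and brackets give the number of list genes that border such sequence. Of the 9 lists shown, the red interval lies wholly above its dashed line, at 1.08 per Mb, for the GLI-responsive regulators, at 1.38 to 3.92. The grey interval lies wholly above its line, at 1.70 per Mb, for developmental transcription factors (1.95 to 3.12) and guidance genes (1.87 to 3.51). It also does so for neural progenitor genes (1.80 to 6.10).

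The distance rule did not count non-coding genes. Of the 1018 peaks 156 (15.3%, 13.2 to 17.7) lay inside a RefSeq long non-coding RNA gene, against 192 of 1602 untreated-only peaks beyond 50 kb (11.98%, 10.4 to 13.7), and these intervals overlap. The 156 fell in 145 such genes. Among them were the strongest peak near Pkdcc, inside Gm46606, the Hes1 peak inside 4632428C04Rik and the Foxd2 peak inside Gm33655. A peak of 11.7-fold, 58.6 kb from Kif13b, lay inside Mir124a-1hg, the host gene of a neuronal microRNA. These host genes were named after their values were seen. Median fold was 5.12 both inside and outside such genes, the step of 6 fragments. A −log10 q of 5 or more was reached by 30.1% of those inside and 24.7% of those outside, and 10 of the 36 peaks at 10-fold or more lay inside.

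The 5 farthest peaks were weak or moderate. The most distant, 2078 kb from Cntnap5b, had 6 fragments and 5.12-fold enrichment. Peaks 2065 kb from Olfm4 and 2063 kb from Pcdh20 had 7 and 5 fragments, and a pair at 1982 and 1930 kb from Cdh20 had 6 and 10 (8.04-fold). At the threshold itself, the peaks just beyond 50 kb were nearest to Lsm14a (50.1 kb, 7.31-fold), Duxbl3 (50.5 kb, 12.4-fold), Hivep1 (50.5 kb, 4.39-fold) and Gm8674 (50.5 kb, 8.04-fold). Those just short of it were nearest to Lrig3 (49.9 kb, 7.31-fold), Cstad (49.8 kb, 6.81-fold), Gm15319 (49.8 kb, 4.15-fold) and Arf6 (49.3 kb, 6.58-fold).

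The rule removed any region that overlapped an untreated peak, so close ones were limited by selection. An untreated peak had its midpoint within 1 kb for 9 of the 1018 (0.884%, 0.405 to 1.67) and within 10 kb for 45. The median distance to an untreated peak was 183 kb. A site with 4 fragments could enter the untreated list, so a region without such a peak fell short of that level or of the peak call there, and a difference in signal between the conditions was not tested.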

How the data were processed

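ChIP-seq of tagged GLI3R was deposited as 1 peak list per condition. The submitters' processing notes name mm10, MACS2 2.1.1, Bowtie2 2.3.2 and SAMtools 1.5. For settings, pooling of the pull-downs and use of the inputs, nothing is given in the sources used here. Titles set the groups, although the labels' treatment text names GLI1. Fold enrichment is a ratio that the authors deposited. Both −log10 p and −log10 q are as the authors deposited them. The deposited score equals 10 times −log10 q without decimals and was not used. Library totals were not analysed here.

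Rows sharing an interval were merged, keeping the best summit (3725 to 3640 doxycycline and 4428 to 4379 untreated). Distances ran from the interval midpoint to 21631 RefSeq protein-coding gene intervals (GRCm38.p6) on 20 chromosomes. The pileup was worked back from fold = (pileup + 1) / (expectation + 1) and the Poisson p, with a whole number within 0.01 of −log10 p for 99.8% of peaks in each list and for every region described. Background expectation was 0.368 fragments with doxycycline and 0.272 without. Intervals are 95% exact (Clopper-Pearson) or Poisson and cover counting error only. Densities count peaks between the first and last genes of a chromosome, which leaves out 2 of the 1018 regions. Coordinates count from 1.

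The regions, the 10 gene lists (322 genes) and the alternatives were chosen with earlier results of these data known, and the lists share genes, so they are not independent. Genes named by rule were the nearest to the 20 strongest regions, to 4 on each side of the threshold and to the 5 farthest, up to 4 per list, and the flanks of 4 runs, taken by number of regions and, where tied, by position. No test was made, since the values that chose the regions come from the same lists. The steps were tested on simulated data. Of the 20, 1 is not reported here. Other genes named were picked after their values were seen. The software was Python 3.11.15 (scipy 1.17.1, numpy 2.4.6, matplotlib 3.10.9, pandas 2.3.3).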

Additional observations from a re-analysis of the deposited data

How the results depend on the processing

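No paired analysis was possible because the values of a condition come as a single list that does not separate its pull-downs, and for the same reason no replicate could be left out. With a −log10 q of at least 5, which keeps fewer peaks by construction, 260 regions remained of 1018, their median fold was 7.31 against 5.12, 9.62% against 22.5% lay within 100 kb of another, the median distance to a gene was 144 kb against 180, 22.7% against 19.0% lay within 1 kb of a non-coding gene, and 35 against 89 list genes were nearest to one. The interval of the median distance was 119 to 171 kb there and 167 to 195 kb over all. Linking regions within 50 kb gave 13.9% in place of 22.5%. Counts within 1.5 times came from distances of 100 kb (740) and 25 kb (1252), from measuring at the summit (1018), from requiring no untreated peak within 1 kb (1009), and from leaving out 2 regions of high local expectation (1016). With the gene on either side, 128 list genes were counted, and single lists moved by more: Hedgehog pathway from 1 to 4, GLI-responsive from 7 to 12, heart field from 5 to 11 and neural progenitor from 1 to 5. Leaving out regions of high local expectation, and the stricter q for distance and non-coding genes, were added after seeing the data. The GLI motif was searched in the 2 promoter windows alone. The search over all regions, with its 2 alternatives, was not run, since their sequence was not used here. Most regions rest on 5 to 7 fragments, so depth limits any ranking among them.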

Other observations

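Chromosomes differed in the share of doxycycline-only peaks that lay beyond 50 kb. On chromosome X 33 of 62 did (53.2%), on chromosomes 8 and 16 84 of 210 and 54 of 135 (40% each), and on chromosome 19, rich in genes, 12 of 81 (14.8%). For untreated-only peaks the values were 41.7% on X, 43.3% on 8, 38.8% on 16 and 24.4% on 19. These chromosomes were picked after their values were seen.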
